A study of Mus musculus with 9 samples.

Results

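The genes described here are 7 genes whose proteins coat the milk fat globule, or the lipid droplet from which it is made: Btn1a1, Xdh, Plin2, Cidea, Mfge8, Muc1 and Cd36. They were chosen by name, through the gene symbol of the array's annotation or an older synonym (Plin2 was long known as Adfp). They are 7 of the 8251 genes that the array's probe sets name by 1 symbol. They are measured by 8 of its 12422 probe sets, 7 of which were bright enough to be tested. Expression was measured with MG-U74Av2 arrays, Affymetrix arrays that read each gene with 1 or more sets of short probes, in RNA of whole number 4 (inguinal) mammary glands of wild type C57BL/6J females, an inbred mouse strain, with no transgene or treatment in any group. There were 3 arrays from virgin mice in puberty at 6 weeks of age, 2 from mice at day 14 of pregnancy, 2 from mice at day 10 of lactation and 2 from mice at day 4 of involution, counted from the weaning of the pups. Each array was a separate biological replicate, and ages were given only at puberty. A whole gland holds epithelium, fat, vessels and immune cells together, and in such RNA fewer cells of a type and less RNA per cell cannot be told apart.

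Milk fat is made as triglyceride droplets inside the secretory epithelial cells of the alveoli. A droplet in the cytoplasm carries a coat of proteins of the perilipin family, chiefly perilipin 2, the product of Plin2, and CIDE proteins such as that of Cidea act on droplet fusion and growth. At the apical surface the droplet is wrapped in plasma membrane and shed as a milk fat globule, and butyrophilin (Btn1a1) and xanthine dehydrogenase (Xdh) are needed for this step. The shed membrane also carries the secreted glycoprotein lactadherin (Mfge8), the mucin Muc1 and the fatty acid receptor Cd36.

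Promoters are shown for 4 of the 7 genes, taken from the RefSeq promoter table used here (assembly GRCm38.p6). The selection left out a chromosome, so a gene not shown here may still be in the table. Each sequence has 300 bases on the strand of its gene, from 250 before the start of transcription to 50 after it. Capitals mark a GC box (GGGCGG or its complement on the other strand) or a TATA box (TATAAA on either strand). The sequences lie at chr7:79149011-79149310 on the minus strand for Mfge8, chr3:89228806-89229105 on the plus strand for Muc1, chr4:86670010-86670309 on the minus strand for Plin2 and chr5:17835847-17836146 on the minus strand for Cd36.
Mfge8: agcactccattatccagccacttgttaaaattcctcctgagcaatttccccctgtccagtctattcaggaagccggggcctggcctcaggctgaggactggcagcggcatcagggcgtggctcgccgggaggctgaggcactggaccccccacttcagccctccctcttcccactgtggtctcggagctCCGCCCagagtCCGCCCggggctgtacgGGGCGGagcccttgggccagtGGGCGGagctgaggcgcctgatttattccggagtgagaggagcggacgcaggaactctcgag
Muc1: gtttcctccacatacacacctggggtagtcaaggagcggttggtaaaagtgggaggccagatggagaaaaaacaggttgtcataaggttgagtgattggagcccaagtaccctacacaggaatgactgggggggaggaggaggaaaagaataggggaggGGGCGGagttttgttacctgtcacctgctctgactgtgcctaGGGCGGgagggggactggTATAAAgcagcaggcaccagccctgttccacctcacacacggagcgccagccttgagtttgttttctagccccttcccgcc
Plin2: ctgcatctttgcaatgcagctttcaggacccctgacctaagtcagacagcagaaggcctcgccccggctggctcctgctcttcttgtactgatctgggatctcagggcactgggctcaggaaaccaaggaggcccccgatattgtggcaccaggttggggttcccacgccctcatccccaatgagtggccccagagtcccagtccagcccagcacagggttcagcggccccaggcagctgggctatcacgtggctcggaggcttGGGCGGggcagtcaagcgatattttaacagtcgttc
Cd36: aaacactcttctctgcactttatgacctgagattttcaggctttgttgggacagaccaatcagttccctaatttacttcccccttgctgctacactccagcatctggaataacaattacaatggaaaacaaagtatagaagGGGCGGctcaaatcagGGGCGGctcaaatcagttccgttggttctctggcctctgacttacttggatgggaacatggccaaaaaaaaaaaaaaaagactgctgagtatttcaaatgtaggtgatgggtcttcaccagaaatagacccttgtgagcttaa

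The Mfge8 window held 4 GC boxes, which began 61, 50, 33 and 12 bases before the start. The Muc1 window held 2 GC boxes and a TATA box 31 bases before the start, the Cd36 window 2 GC boxes and the Plin2 window 1, just after the start. Of all 32851 promoters in the table, 35.7% held a GC box and 13.6% a TATA box. None of the 4 windows held the letters TTCNNNGAA (the core of a STAT site) or TTGCNNAA (the core of a C/EBP site) on either strand, which 8.3% and 10.8% of all promoters did. The GC box and the TATA box were added to the search after the data had been seen. These are matches of letters and do not show that a factor binds. GC made up 64.3% of the Mfge8 window, 60.7% of that of Plin2, 55.7% of that of Muc1 and 43% of that of Cd36.

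Values are given as scaled signals, the deposited linear signals brought to the same median on every array. Differences between stages are on the log2 scale, with signals under 20 set to 20, and come from limma with Benjamini-Hochberg adjustment over 9783 tested probe sets at 0.05. The precision is limited by the 2 arrays of most stages. Signals of different probe sets are not compared with each other as levels. Over the tested probe sets, r was 0.947 to 0.975 between arrays of a stage and 0.724 to 0.935 between those of unlike stages, and no array stood apart from its stage.

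All 7 genes differed across the 4 stages by the F test, which 51.6% of all tested probe sets also passed, with Cd36 nearest to the threshold and short of it in 6 alternative settings. From day 14 of pregnancy to day 10 of lactation all 7 rose, where 21.6% of the tested probe sets rose and 19.7% fell. The median log2 difference was 3.30 over the 7 genes and 0.07 over all tested probe sets. Between puberty and pregnancy Btn1a1, Muc1, Plin2 and Xdh rose, Cidea fell, and Mfge8 and Cd36 were not called, against 6.20% of tested probe sets that rose and 5.22% that fell. From lactation to involution 6 of the 7 fell and Cd36 was not called, with 23.0% of tested probe sets falling and 22.1% rising. The median over the 7 was -2.65 in that comparison and -0.03 over all tested probe sets.

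**Figure D1:**
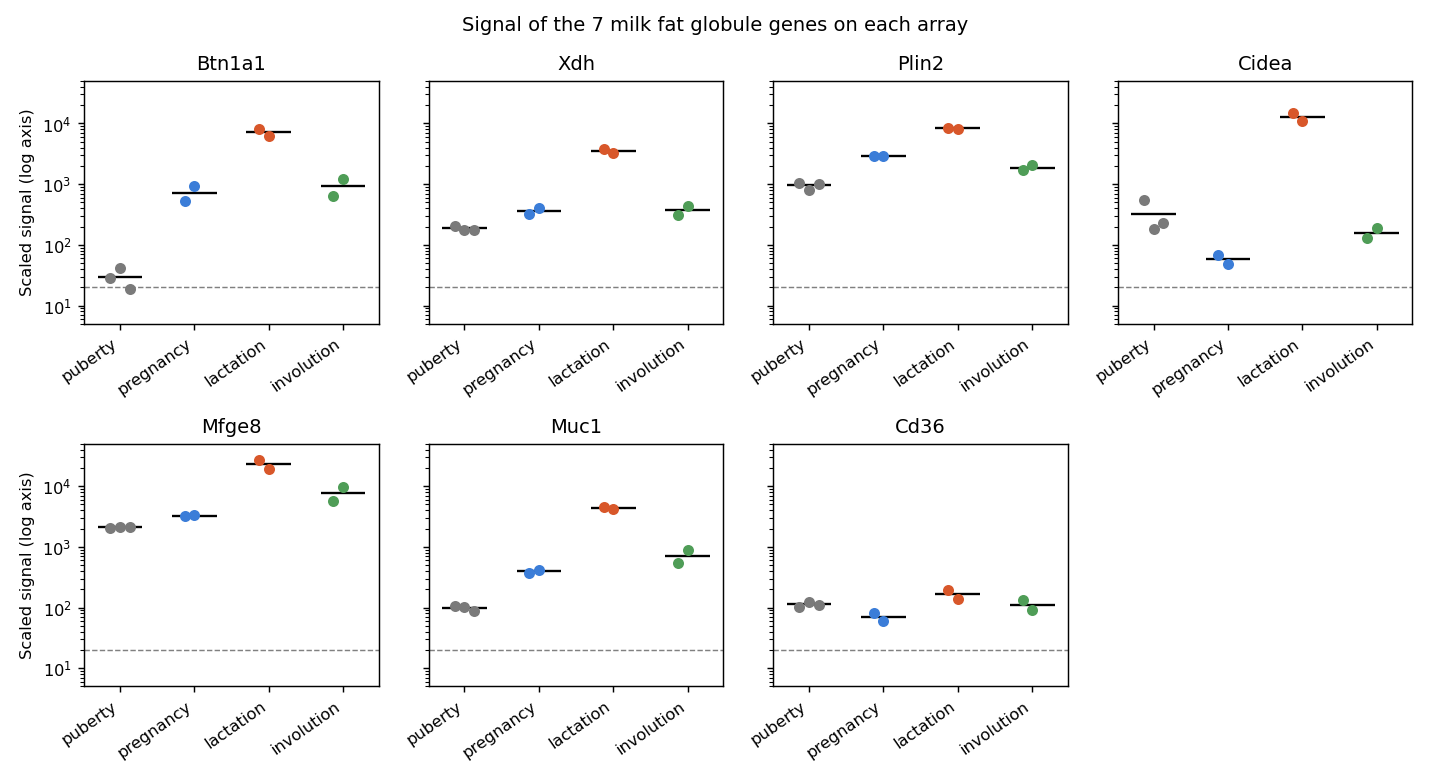
Scaled signal (log axis) of the 7 genes on each of the 9 arrays, by stage, with a point for each array, a bar at each stage mean and a dashed line at the floor of 20. The lactation arrays are the highest for all 7 genes, and Cidea and Cd36 have their lowest arrays at pregnancy.

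Compared with puberty, lactation signals were higher for 6 of the 7 genes, where 26.1% of tested probe sets rose and 21.8% fell, and Cd36 was again the gene not called. The 7 genes had a median difference of 4.26 there, against 0.09 over all tested probe sets. At involution, 5 of the 7 (Btn1a1, Muc1, Mfge8, Xdh and Plin2) were above puberty, where 4.39% of tested probe sets rose and 3.10% fell. Against pregnancy, Mfge8 alone of the 7 was called at involution, as higher, with 4.03% of tested probe sets rising and 3.10% falling. The signals of the 7 genes together made up 0.165% to 0.198% of the total signal of a puberty array, 0.324% and 0.381% at pregnancy, 2.35% and 1.88% at lactation, and 0.396% and 0.599% at involution.

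Btn1a1 encodes butyrophilin, a membrane protein of the immunoglobulin superfamily that is abundant in the globule membrane and binds xanthine dehydrogenase. Its scaled signal was 27.9, 41.2 and 19.0 on the puberty arrays, 530.1 and 919.5 at pregnancy, 8142.9 and 6273.0 at lactation, and 628.0 and 1205.9 at involution. Puberty arrays lay near or under the floor, lactation arrays were far above all others, and the pregnancy and involution arrays overlapped. The rise from puberty to pregnancy was 4.62 on the log2 scale (standard error 0.379, limma adjusted p = 0.000397), or 24.6-fold, and that from pregnancy to lactation was 3.36 (standard error 0.415, adjusted p = 0.000455), or 10.2-fold. Over both steps Btn1a1 rose by 7.97 (adjusted p = 2.94e-06). As its puberty signals lay at the floor or near it, the size of the differences from puberty depended on the floor, and with a floor of 50 the rise to pregnancy was 14.0-fold (3.80, adjusted p = 0.00521). At involution it had fallen by 3.04 from lactation (adjusted p = 0.000567) and stood 0.32 above pregnancy, which was not significant (95% interval -0.63 to 1.26, adjusted p = 0.742). Of the log2 rise from puberty to lactation, 57.9% was already present at pregnancy and 61.9% was still present at involution.

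Xdh encodes xanthine dehydrogenase, an enzyme of purine breakdown that has a structural part in the globule coat. The scaled signal of Xdh was 205.6, 176.4 and 176.4 at puberty, 321.1 and 403.8 at pregnancy, 3800.0 and 3316.0 at lactation, and 312.7 and 437.0 at involution. In contrast to Btn1a1, the larger part of its log2 course lay between pregnancy and lactation. On the linear scale the 2 genes were alike, with pregnancy means of 10.2% (Xdh) and 10.1% (Btn1a1) of the lactation mean. Xdh rose by 0.96 from puberty to pregnancy (standard error 0.178, limma adjusted p = 0.0107) and by 3.30 from pregnancy to lactation (standard error 0.195, adjusted p = 1.86e-05), which is 9.86-fold. It fell by 3.26 from lactation to involution (adjusted p = 1.37e-05), where it differed from pregnancy by 0.04 (95% interval -0.41 to 0.48, adjusted p = 1). Present at pregnancy was 22.4% of its log2 rise, and 23.3% remained at involution. The smaller step from puberty to pregnancy was not called without pregnancy replicate 2 (0.79, adjusted p = 0.122) or with a plain analysis of variance (adjusted p = 0.0579). The difference of 0.99 between involution and puberty (adjusted p = 0.0129) stayed called in 16 of 22 alternatives. It was lost by a plain analysis of variance (adjusted p = 0.0716) and in a limma fit of those 2 stages alone (adjusted p = 0.0853). The replicate number as a block also lost it (limma adjusted p = 0.0731), as did leaving out involution replicate 2 (0.75), lactation replicate 1 or lactation replicate 2.

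Enzymes that make the molybdenum cofactor of xanthine dehydrogenase, and others of purine breakdown, formed a list of 14 genes, of which 10 were tested. Into lactation 3 rose, 2 fell and 5 were not called against pregnancy, with a median of -0.22 against 0.07 over all tested probe sets. Of all tested probe sets, 21.6% rose and 19.7% fell in that comparison, and the same shares apply to the lists below. Mocs1, which acts in the first step of cofactor synthesis, was under the floor on both pregnancy arrays (19.8 and 19.1) and at 81.4 and 87.0 at lactation, at least 4.21-fold higher (limma adjusted p = 0.000244). Gphn, which encodes gephyrin and acts in the last steps of cofactor synthesis, rose from 87.7 and 89.8 to 208.6 and 214.5, a difference of 1.25 (adjusted p = 0.00159). Pnp, a purine nucleoside phosphorylase gene, fell by 0.96 (adjusted p = 0.00363), and Aox1, a molybdenum-containing oxidase gene, differed by -0.96 without passing the test (adjusted p = 0.129). Relatives of butyrophilin were mostly not measured. Of 10 genes listed, 2 were tested, and of these Cd86 had a difference of -0.53 and Cd80 one of 0.35 between pregnancy and lactation, neither of which was called (adjusted p = 0.343 and 0.204).

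Plin2 encodes perilipin 2, the coat protein of cytoplasmic lipid droplets in many cell types. Its scaled signal was 1062.1, 795.6 and 993.1 at puberty, 2900.9 and 2886.9 at pregnancy, 8574.2 and 8023.0 at lactation, and 1721.5 and 2031.2 at involution. No 2 stages overlapped, and the involution arrays lay between puberty and pregnancy. The steps from puberty to pregnancy and from pregnancy to lactation were of similar size for Plin2, 1.62 (standard error 0.157, limma adjusted p = 0.000797) and 1.52 (standard error 0.172, adjusted p = 0.000303), which are 3.07-fold and 2.87-fold. Under quantile normalization, which gives all arrays the same distribution, the second step was 0.87, still called. Plin2 fell by 2.15 from lactation to involution (adjusted p = 4.36e-05). Its difference from pregnancy at involution was -0.63, just short of the threshold (adjusted p = 0.0639), and it was called as lower on the deposited scale (-0.72, adjusted p = 0.0413), with quantile normalization (-0.78, adjusted p = 0.0327) and with a filter of 100 (adjusted p = 0.0379). Its excess of 0.99 over puberty at involution (adjusted p = 0.00766) was lost without involution replicate 2 (0.87, adjusted p = 0.0748) and in a fit of those 2 stages alone (adjusted p = 0.0762).

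Cidea encodes a CIDE protein of lipid droplets, known from brown fat as well as from the lactating gland. The scaled signal of Cidea was 550.5, 180.1 and 225.4 at puberty, 68.7 and 49.1 at pregnancy, 14891.9 and 10788.8 at lactation, and 127.8 and 186.7 at involution. Both lactation arrays were far above all others, both pregnancy arrays were the lowest, and puberty and involution overlapped. From pregnancy to lactation Cidea rose by 7.77 (standard error 0.474, 95% interval 6.69 to 8.85, limma adjusted p = 2.08e-05), or 218-fold, and the fall to involution was 6.36 (adjusted p = 3.01e-05), or 82.1-fold. Under quantile normalization these were 123-fold and 47.7-fold. Its mean signal was 0.459% of the lactation mean at pregnancy and 1.22% at involution. Between puberty and pregnancy Cidea fell by 2.28 (standard error 0.433, adjusted p = 0.0114). At involution it was 0.87 under puberty and 1.41 above pregnancy, without passing the test (adjusted p = 0.284 and 0.118).

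All 3 puberty arrays of Cidea lay above both pregnancy arrays, but the call of this fall was lost in 8 of 22 alternatives, at differences of -2.04 to -2.52. These were leaving out pregnancy replicate 1 (-2.52, adjusted p = 0.0721), pregnancy replicate 2 (-2.04, adjusted p = 0.152), lactation replicate 1 (-2.28, adjusted p = 0.0651) or lactation replicate 2 (-2.28, adjusted p = 0.0688), a floor of 50 (-2.27, adjusted p = 0.0560), no filter on low signals (-2.28, adjusted p = 0.0650), a plain analysis of variance (-2.28, adjusted p = 0.0848) and a fit of those 2 stages alone (-2.28, adjusted p = 0.0987). Without puberty replicate 1, the highest of the puberty arrays, it was -1.79 (adjusted p = 0.0103). The same array had the highest signal of Ucp1, the uncoupling protein that defines brown fat, with 643.4, against 106.1 and 33.1 on the other puberty arrays and 54.0 and 15.3 at pregnancy. At lactation, where Cidea was highest, Ucp1 lay under the floor on both arrays (14.5 and 8.2). Cox8b, a respiratory chain gene listed here as a brown fat marker, was at 837.4 to 1071.5 at puberty. It was at 270.6 to 335.7 at pregnancy, and at 315.8 and 306.9 at lactation. The paper placed Cox8b in the same cluster as the myosin gene Myl1, and the cell source of its signal was not tested. All 7 further brown adipocyte markers listed were on the array and 5 were tested. From puberty to pregnancy Cox8b (-1.69, limma adjusted p = 0.00269) and Cox7a1 (-2.17, adjusted p = 0.0107) fell and Fabp3 rose (2.59, adjusted p = 0.00101), while Ucp1 (-1.998, adjusted p = 0.272) and Dio2, named after its values were seen (0.67, adjusted p = 0.575), were not called. Puberty replicate 1 was the highest puberty array for Ucp1, Cox7a1 and Dio2, and puberty replicate 3 for Cox8b and Fabp3. Their summed signal ranged from 1065 to 1993 at puberty, 773 to 818 at pregnancy and 382 to 551 at involution. It was 11669 and 15082 at lactation, where it was mostly that of Fabp3, a gene also listed with the globule proteins, at 14682.6 and 11282.0. Of the markers, Cox7a1 was under the floor on all pregnancy and lactation arrays, and Elovl3 and Ppargc1a were too dim in every stage to be tested. The part of brown fat in the puberty signal of Cidea was not tested.

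**Figure D2:**
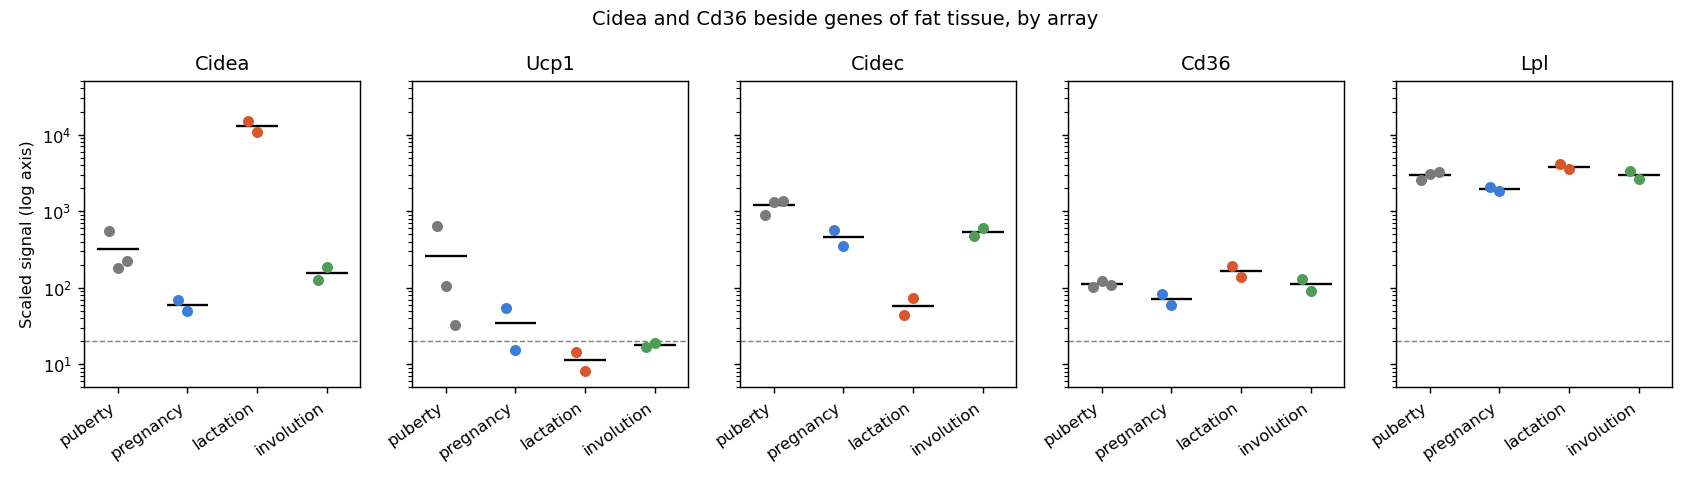
Scaled signal (log axis) of Cidea and Cd36 beside Ucp1, a marker of brown fat, Cidec, a droplet gene of white fat, and Lpl, lipoprotein lipase, on each of the 9 arrays, with a bar at each stage mean and a dashed line at the floor of 20. Cidea is highest at lactation, where Ucp1 is under the floor and Cidec is lowest, and Cd36 and Lpl both have their lowest arrays at pregnancy.

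Cidec, the CIDE gene of white fat, ran the other way. Its scaled signal was 893.5, 1319.8 and 1358.3 at puberty, 575.7 and 349.9 at pregnancy, 44.5 and 72.9 at lactation, and 472.6 and 604.9 at involution, with every lactation array under every other array. Into lactation Cidec fell by 2.98 (standard error 0.325, limma adjusted p = 0.000262). Besides Plin2 and Cidea, 17 further genes of lipid droplet proteins were listed and 10 tested. Of the 10, 3 rose from pregnancy to lactation, 4 fell and 3 were not called, with a median of 0.31. Rab18, a small GTPase of droplets, rose from 563.8 and 546.5 to 3941.1 and 2970.8 (2.62, adjusted p = 1.86e-05), and G0s2, an inhibitor of the main triglyceride lipase, from 991.6 and 792.0 to 2729.0 and 2230.3 (1.48, adjusted p = 0.000520). Plin4, a perilipin of white adipocytes, fell from 497.0 and 285.5 to 99.4 and 99.8 (-1.92, adjusted p = 0.00108). The brighter probe set of Mgll, which encodes monoacylglycerol lipase, fell by 1.54 (adjusted p = 0.000379) while its other probe set rose by 1.72 (adjusted p = 0.000308), so that no direction can be given for the gene.

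Mfge8 encodes lactadherin, a secreted protein that binds phosphatidylserine and integrins and takes part in the uptake of dying cells. Its scaled signal was 2060.0, 2094.6 and 2160.7 at puberty, 3179.5 and 3386.3 at pregnancy, 26616.9 and 19450.6 at lactation, and 5608.0 and 9541.7 at involution. No stages overlapped, and involution lay above pregnancy. From pregnancy to lactation Mfge8 rose by 2.79 (standard error 0.261, limma adjusted p = 0.000135), or 6.93-fold, while the difference of 0.64 between puberty and pregnancy was not called (95% interval 0.10 to 1.18, adjusted p = 0.134). At involution Mfge8 had fallen by 1.64 (adjusted p = 0.00128) and its mean was 32.9% of that at lactation. Under quantile normalization the rise from pregnancy to lactation was 1.70 and the fall after lactation was -0.38, no longer called (adjusted p = 0.205), and a fit of the lactation and involution arrays alone gave an adjusted p of 0.0675. Involution exceeded puberty by 1.80 (adjusted p = 0.00330) and pregnancy by 1.16 (adjusted p = 0.0349). The excess over puberty was not called in a limma fit of those 2 stages alone (adjusted p = 0.0615). The difference from pregnancy stayed called in 9 of 22 alternative settings only, with adjusted p from 0.0120 to 0.264, and was lost on leaving out any array other than involution replicate 1.

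Of 17 further genes for phosphatidylserine receptors and engulfment, 10 were tested. From pregnancy to lactation 2 of them rose, 4 fell and 4 were not called (median -0.28). Of all tested probe sets, 21.6% rose and 19.7% fell there. From lactation to involution 5 rose and 2 fell, where 22.1% of all tested probe sets rose and 23.0% fell. Lrp1, which encodes a large endocytic receptor, fell by 1.83 into lactation (limma adjusted p = 0.000129) and rose by 2.40 after it (adjusted p = 2.27e-05). Pros1, which encodes protein S, a bridge between phosphatidylserine and its receptors, fell by 2.37 (adjusted p = 0.000346) and rose by 2.95 (adjusted p = 9.04e-05). Tyro3, a receptor for protein S, was not called in either comparison (-0.50 and -0.08, adjusted p = 0.242 and 0.867). Probe sets of Itgav, the integrin subunit that lactadherin binds, disagreed. Into lactation 2 of them rose, by 1.90 and 1.80 (limma adjusted p = 0.000147 and 0.000818), and another fell by 1.79 (adjusted p = 0.000644). Itgav was counted by its brightest probe set, among the genes that rose into lactation and fell after it.

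Muc1 encodes a heavily glycosylated mucin of the apical membrane. The scaled signal of Muc1 was 107.7, 102.9 and 88.6 at puberty, 375.0 and 422.8 at pregnancy, 4473.6 and 4212.4 at lactation, and 546.0 and 882.1 at involution. No stages overlapped, and their order was lactation, involution, pregnancy and puberty. Muc1 rose by 2.002 from puberty to pregnancy (standard error 0.198, limma adjusted p = 0.000841) and by 3.45 from pregnancy to lactation (standard error 0.217, adjusted p = 2.25e-05), 4.01-fold and 10.9-fold. It fell by 2.65 to involution (adjusted p = 4.86e-05), where it was 2.80 above puberty (adjusted p = 0.000162). The difference of 0.80 from pregnancy at involution was not called (adjusted p = 0.0625), but was so without involution replicate 1 (1.15, adjusted p = 0.0198).

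Of 13 further genes of mucins and of the enzymes that build and sialylate their sugars, 7 were tested. Of these, 5 rose from pregnancy to lactation, 1 fell and 1 was not called, and the median was 1.81. St6gal1, a sialyltransferase gene, had signals of 171.8 and 218.0 at pregnancy and of 1745.6 and 1484.8 at lactation, a rise of 3.06 (limma adjusted p = 1.79e-05). St3gal4, which encodes another sialyltransferase, rose by 2.22 (adjusted p = 0.000329). Galnt1 and Galnt3, enzymes that start mucin-type sugar chains, rose by 1.81 and 1.98 (adjusted p = 0.000405 and 0.000949). From lactation to involution 6 of the 7 fell and 1 rose.

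Cd36 encodes a scavenger receptor that takes up fatty acids in fat, muscle and endothelium as well as in the mammary epithelium. Its scaled signal was 102.6, 124.4 and 109.5 at puberty, 81.9 and 59.9 at pregnancy, 193.0 and 140.1 at lactation, and 131.1 and 92.0 at involution. Both lactation arrays were above all others, both pregnancy arrays were the lowest, and puberty and involution overlapped. From pregnancy to lactation Cd36 rose by 1.23 (standard error 0.268, 95% interval 0.62 to 1.84, limma adjusted p = 0.00681), or 2.35-fold. That rise was lost without pregnancy replicate 2 (1.01, adjusted p = 0.0550), without lactation replicate 1 (1.001, adjusted p = 0.0581) and in a fit of those 2 stages alone (adjusted p = 0.0575). The F test of Cd36 (adjusted p = 0.0247) was also lost without these arrays (adjusted p = 0.116 and 0.110), without lactation replicate 2 (adjusted p = 0.0511), with a floor of 50 (adjusted p = 0.0607), with no filter (adjusted p = 0.0589) and by a plain analysis of variance (adjusted p = 0.0728). No other comparison of Cd36 was called, and no neighbours in the order of its stages differed, with 0.56 between lactation and puberty (adjusted p = 0.0926), 0.03 between puberty and involution (adjusted p = 1) and 0.65 between involution and pregnancy (adjusted p = 0.195). A second probe set of Cd36 lay far under the floor on every array, between 0.4 and 1.9, and gave no test.

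Of 15 other genes of fatty acid uptake, 11 were tested. Of these, 7 rose from pregnancy to lactation, 3 fell and 1 was not called, with a median of 0.80. Fabp3, the gene of a carrier of fatty acids in the cytosol, was at 355.4 and 378.5 at pregnancy and at 14682.6 and 11282.0 at lactation, 35.1-fold higher (5.13, limma adjusted p = 1.79e-05), and lay under the floor at involution (5.3 and 7.3). Slc27a3, a fatty acid transport gene, was under the floor on both pregnancy arrays and at least 8.62-fold higher at lactation (adjusted p = 2.93e-05). Acsl4, an acyl-CoA synthetase gene, rose by 0.82 (adjusted p = 0.0177). For Cav1, which encodes caveolin 1, the brighter probe set fell by 1.61 (adjusted p = 8.83e-05) and the other rose by 1.69 (adjusted p = 0.00210).

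**Figure D3:**
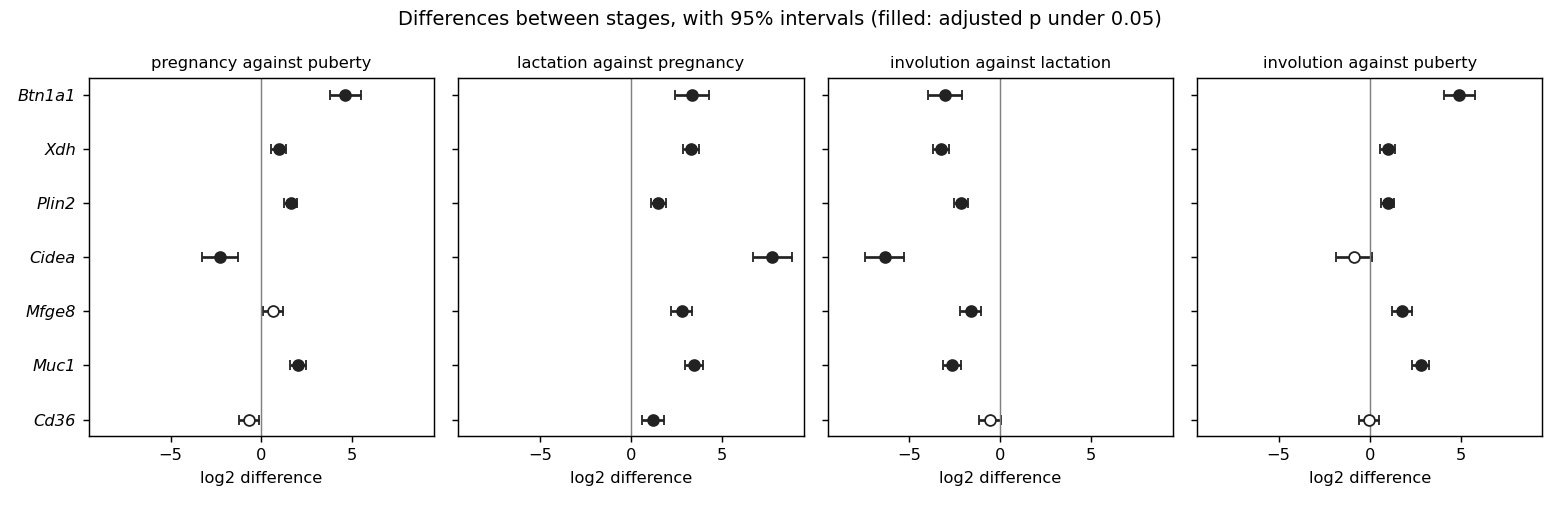
Log2 difference of each of the 7 genes in 4 comparisons of stages, with 95% intervals; filled points passed the adjusted p of 0.05 and open points did not. The 7 rises from pregnancy to lactation range from 1.23 (Cd36) to 7.77 (Cidea), and Cidea is the gene with a called fall between puberty and pregnancy.

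Other proteins found in the globule membrane were covered by 18 further genes, of which 16 were tested. Between pregnancy and lactation 9 rose, 5 fell and 2 were not called, and the median was 0.95. Slc34a2, the sodium phosphate cotransporter gene, rose from 47.2 and 60.8 to 8612.0 and 6999.6 (7.18, limma adjusted p = 8.94e-07), and lay under the floor at puberty and involution. Cel, the bile salt-stimulated lipase gene, rose from 249.5 and 311.8 to 7718.1 and 6522.6 (4.67, adjusted p = 1.09e-05). Abcg2, a transporter gene of the apical membrane, rose from 161.2 and 199.0 to 4126.1 and 3531.7 (4.41, adjusted p = 1.09e-05). The 5 genes that fell, named after their values were seen, were the annexin genes Anxa1 (-1.81), Anxa2 (-2.41) and Anxa5 (-1.25), the tetraspanin gene Cd9 (-1.01) and the complement inhibitor gene Cd59a (-1.01), with adjusted p from 6.06e-05 to 0.0296. These genes are known from many cell types besides the secretory epithelium, and the part of those cells in their falls was not tested.

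**Figure D4:**
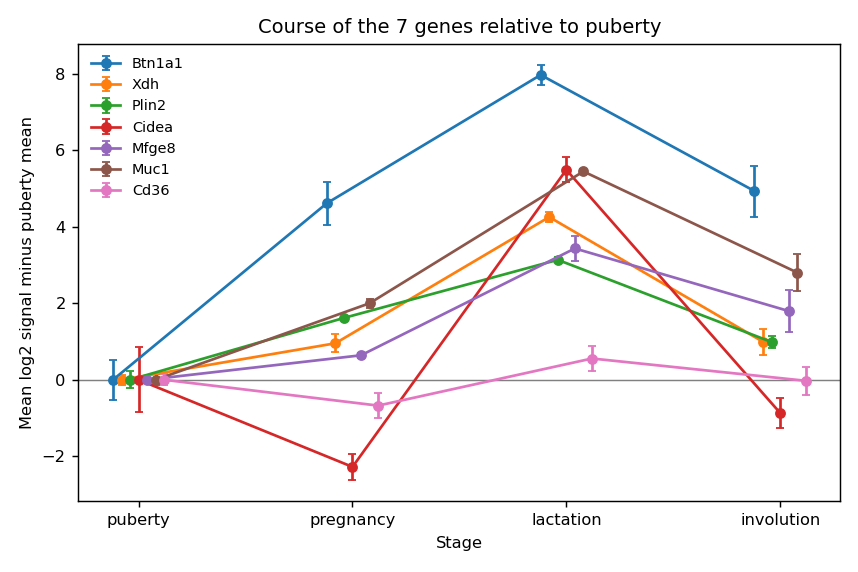
Mean log2 signal of the 7 genes at each stage minus the puberty mean; error bars are the SD over the arrays of a stage (3 at puberty, 2 at each other stage). Btn1a1 is 4.62 above puberty at pregnancy and 4.94 above it at involution, whereas Cidea is 2.28 and 0.87 below puberty at these stages.

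The members differed in how much of their log2 course lay before and after lactation, as the plot of stage means relative to puberty shows. At pregnancy Btn1a1 and Plin2 had 57.9% and 51.6% of their log2 rise from puberty to lactation, Muc1 36.7%, Xdh 22.4% and Mfge8 18.7%. At involution 61.9% was present for Btn1a1, 52.3% for Mfge8, 51.5% for Muc1, 31.5% for Plin2 and 23.3% for Xdh. Under quantile normalization 82.8% was present for Mfge8 at involution, above the 65.3% of Btn1a1. Cidea and Cd36 were below their puberty means at both stages. As linear means, pregnancy had 10.1% of the lactation signal for Btn1a1, 10.2% for Xdh, 9.19% for Muc1, 14.3% for Mfge8 and 34.9% for Plin2. Involution had 12.7%, 10.5%, 16.4%, 32.9% and 22.6% in the same order. These shares were not tested against each other. Over the 9 arrays the log2 signals of Btn1a1, Xdh, Mfge8, Muc1 and Plin2 correlated with each other with r of 0.876 to 0.975. Cidea correlated with these 5 with r of 0.513 to 0.848 and Cd36 with r of 0.260 to 0.569, while Cidea and Cd36 correlated with each other with r of 0.793. These correlations are over 9 arrays in 4 stages and describe mainly the stage means.

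The genes whose log2 signals over the 9 arrays were most like those of each member were sought among 6960 probe sets. These carried 1 symbol, that of a gene other than a member. Probe sets with any stage wholly under the floor were left out. Closest to Btn1a1 were Plet1 (r of 0.993), Csn3, the kappa-casein gene (r of 0.987), and Gpr162 (r of 0.982). For Xdh they were Commd9 (r of 0.994) and the genes of both subunits of lactose synthase, B4galt1 and Lalba (r of 0.990 each). Mfge8 was most like Gorasp2, which encodes a Golgi stacking protein (r of 0.993), Gatm (r of 0.983) and Crem (r of 0.981). Muc1 was most like Cyb561 (r of 0.990), Vapa and Slc1a4 (r of 0.987 each), and Plin2 like Vps45 (r of 0.996), Aldoc (r of 0.995) and Samd10 (r of 0.993). Cidea was most like Mdfi (r of 0.990), Psmd11 (r of 0.988) and Trim3 (r of 0.985). For Cd36 they were Lpl, which encodes lipoprotein lipase (r of 0.959), Usp39 (r of 0.946) and Map2k1 (r of 0.945). Of the 6960 probe sets, 18 had an r above 0.9 with Cd36, against 538 with Xdh. With few stages, many genes share such a course.

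Markers of the cell types of the gland also moved between stages. Of 10 luminal epithelium markers, 9 were tested, and 5 of them rose and 1, Foxa1 (-2.30, limma adjusted p = 0.00634), fell from puberty to pregnancy, while 1 rose and 4 fell from pregnancy to lactation. Their summed signal was 2062 to 3433 at puberty, 5861 and 6622 at pregnancy, 4734 and 5495 at lactation, and 3419 and 4996 at involution. Epcam, an adhesion gene of epithelium, was at 167.5 and 193.2 at pregnancy and at 205.8 and 221.0 at lactation, a difference of 0.25 that was not called (limma adjusted p = 0.434). Elf5, a transcription factor gene of the secretory lineage, rose from 34.6 to 42.5 at puberty to 1093.8 and 1215.5 at pregnancy and to 3561.3 and 2455.7 at lactation (1.36 in the last step, adjusted p = 0.00211). Krt8 (-0.94), Krt18 (-2.29), Krt19 (-2.88) and Cldn3 (-1.35) were the 4 that fell in that step (limma adjusted p from 0.000537 to 0.0358). They were named after their values were seen. Basal epithelium markers had a summed signal of 1771 to 1923, 5760 to 6004, 3713 to 3769 and 3099 to 3313 in the 4 stages in the same order, and 5 of the 8 tested fell from pregnancy to lactation while none rose.

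White adipocyte markers, of which 10 of 12 were tested, summed to 13903 to 18336 at puberty, 8355 to 11631 at pregnancy, 6338 to 6456 at lactation and 15209 to 16569 at involution. From pregnancy to lactation 6 of the 10 fell and 1, Lpl, rose (0.96, limma adjusted p = 0.00410), and from lactation to involution 9 rose. Most of the lactation sum was that of Lpl, at 4086.0 and 3556.5. Pparg, the main transcription factor of fat cells, was under the floor on both lactation arrays (5.1 and 4.1) and at 108.1 and 103.6 at pregnancy, at least 5.29-fold lower (limma adjusted p = 6.77e-05). Adipoq, which encodes adiponectin, fell by 1.71 into lactation (adjusted p = 0.000383). Endothelium markers, 9 of 11 tested, summed to 1452 to 1592, 1328 to 1381, 819 to 820 and 1657 to 1731 in the 4 stages, with 6 falling and none rising from pregnancy to lactation. Macrophage markers, 11 of 12 tested, summed to 3552 to 4244, 3862 to 3946, 2319 to 3263 and 8683 to 10411, with 9 rising from lactation to involution. Csf1r was counted among these by its brightest probe set, which rose by 2.75 (limma adjusted p = 4.03e-05). Its other tested probe set fell by 1.24 (adjusted p = 0.0257). Of the 5 brown adipocyte markers tested, 1 rose and none fell from pregnancy to lactation. The part of cell content in these marker shifts, and in the values of the 7 genes, was not tested.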

How the data were processed

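The 9 arrays were assigned to 4 stages and to replicates from the sample titles, with the label virgin taken as puberty. The authors deposited linear signal intensity for 12488 probe sets, made with MAS5 (version not given in the sources used here) and scaled to an equal trimmed mean per array. The filter and the normalization per chip and gene that the methods describe are not in these values, and methods and labels differ on the amount of cRNA. Detection calls were not used here.

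Of the probe sets, 66 controls were left out, each array was multiplied by a factor (0.948 to 1.06) that made the medians equal, lower values were raised to a floor of 20, and the log2 was used. The 9783 probe sets that averaged over 20 in some stage entered limma 3.58.1 in R 4.3.3 (lmFit, eBayes with trend). An F test covered the 4 stages and 6 contrasts their pairs, with all 9 arrays sharing 1 estimate of the spread and Benjamini-Hochberg adjustment over 9783 probe sets. Fold changes are on this floored log2 scale and understate changes of dim genes, and a fold against a stage wholly at the floor is a lower bound. The values were read with the R package data.table, version 1.17.8, and plots and promoter searches were made in Python 3.11.15 with matplotlib 3.10.9.

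Genes were named from the platform annotation, in which 10833 probe sets carry 1 symbol, 396 several and 1193 none. Current symbols came by Entrez ID from the gene list of RefSeq for 10817 of the 10833. A gene is represented by its brightest probe set. The members, the gene lists, the tests and the rule for named genes were chosen with earlier results of these data known. Named were all members, up to 4 genes per list with the smallest F test p, and the 3 genes most like each member over the 9 arrays; others are marked in the text. A member was left out of any other list that held it. The script was tested on simulated data. Alternatives were 3 other scalings, 3 treatments of low values in place of the floor, 2 other filters, 3 variance models, a fit of the compared stages only, the replicate number as a block, and leaving out each array.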

Additional observations from a re-analysis of the deposited data

How the results depend on the processing

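No member's called difference changed sign under the 22 alternatives, 9 of which left out 1 array each. Over the members' contrasts and F tests, 1019 values stayed on their side of the threshold, 44 lost the call and 8 gained it. All 22 alternatives kept the rise into lactation of Btn1a1, Xdh, Mfge8, Muc1, Plin2 and Cidea, with the lowest values for Plin2 (0.87) and Mfge8 (1.70), both under quantile normalization. Called folds moved by over 1.5 times under 3 settings only. Under quantile normalization the folds of lactation over puberty were 4.58 for Mfge8, 5.74 for Plin2 and 24.7 for Cidea, in place of 10.8, 8.79 and 45.0. For Btn1a1 a floor of 50 and an added constant of 16 gave 14.0-fold and 16.1-fold for pregnancy over puberty, 17.4-fold and 19.95-fold for involution over puberty, and 142.9-fold and 161-fold for lactation over puberty, in place of 24.6, 30.6 and 251. Involution against pregnancy, with 1 member called, gave 2 on the deposited scale, with quantile normalization and with an added constant of 16, 3 with a filter of 100, and 0 with a floor of 50, no filter, a plain analysis of variance, the fit of those 2 stages alone and the replicate block. Pregnancy against puberty gave 3 members in place of 5 by the analysis of variance, and involution against puberty 2 in place of 5 in the fit of those stages alone.

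Counts over all tested probe sets moved too. Involution against puberty, with 732 calls, gave 480 with a floor of 50, 454 with no filter, 317 by the analysis of variance and 240 in the fit of the 2 stages. Involution against pregnancy, with 697 calls, gave 420 with no filter, 322 by the analysis of variance and 1 in the fit of the 2 stages. Pregnancy against puberty, with 1118, gave 617 by the analysis of variance, and involution against lactation, with 4415, gave 2488 in the fit of the 2 stages. The fit of 2 stages has fewer arrays for its estimate of the spread, and the cause of the other shifts was not tested.

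Leaving out 1 array at a time gave 6 to 7 members by the F test, 6 to 7 for lactation against pregnancy, 3 to 5 for pregnancy against puberty, 6 to 6 for involution against lactation, 3 to 5 for involution against puberty, 6 to 6 for lactation against puberty and 0 to 2 for involution against pregnancy. Over all probe sets it gave, in the same order, 4044 to 4968, 2573 to 4089, 288 to 1104, 3554 to 4244, 245 to 798, 3913 to 4722 and 166 to 600. The 3 members came without pregnancy replicate 2 and without involution replicate 2. For involution against pregnancy, 2 members were called without involution replicate 1, 1 without puberty replicate 1 and 0 without any other array. The 2573 calls came without pregnancy replicate 1, which gave 481 for pregnancy against puberty and 223 for involution against pregnancy, and pregnancy replicate 2 gave 288 and 166 for these. Involution against puberty gave 371, 479 and 461 calls without puberty replicates 1, 2 and 3 and 245 without involution replicate 2. Involution against pregnancy gave 443 without puberty replicate 2 and 326 without involution replicate 2, and pregnancy against puberty 741 without puberty replicate 3. Where a stage kept 1 array, that array was taken to vary like those of the other stages.

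Arrays with the same replicate number did not deviate together (correlations of -0.153 to 0.049 over 12 pairs). Between stages of 2 arrays both pairs give the same value by construction, so not all 12 are separate. The check cannot show whether the numbers stand for a shared step of processing, and the main fit took them as names only. With the replicate number as a block, 543 probe sets were called for pregnancy against puberty, 354 for involution against puberty and 335 for involution against pregnancy, and the calls of Xdh in its pregnancy and involution differences from puberty (adjusted p = 0.0634 and 0.0731) and of Mfge8 for involution against pregnancy (adjusted p = 0.0968) were not made.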
